A study of Homo sapiens with 8 samples.

Results

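Cytosolic ribosomal proteins are the protein parts of the ribosomes that translate messenger RNA outside mitochondria. Genes were taken by name from the deposited gene counts, as protein-coding genes called RPS or RPL with a number and an optional suffix, or RPSA, RPLP0, RPLP1 or RPLP2. The rule found 84 of 58735 genes, 32 of the small and 52 of the large subunit, and used no measured value. Of these, 82 passed the filter on low counts. Total RNA was sequenced in bulk from SV-HUC1, an established line of human urothelial cells immortalised with SV40. In 4 treated cultures glucose oxidase, which oxidises glucose and releases hydrogen peroxide, was added at 20 mU per ml for 24 h. The 4 control cultures were left untreated for 24 h, and both groups grew in the same serum-containing medium. Libraries of each group are numbered 1 to 4. All cultures are 1 line whose large T antigen binds p53, and the design held neither an inactive enzyme nor added peroxide as a comparison.

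Each ribosome carries 1 copy of nearly every ribosomal protein, and proteins made in excess are broken down, so cells keep the synthesis of the set balanced. Much of that control acts on translation. Ribosomal protein mRNAs begin with a run of pyrimidines, the 5' terminal oligopyrimidine tract, through which mTOR signalling and the RNA-binding protein LARP1 set their translation, so an mRNA level does not give the rate of synthesis. Some ribosomal proteins also act off the ribosome. RPL5 and RPL11, with 5S ribosomal RNA, bind MDM2 when ribosome assembly is disturbed.

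The start-site sequences are shown because many of the members share this tract. RefSeq windows (GRCh38.p14) held 67 of the 84 genes, and a pyrimidine run of at least 5 bases that includes the annotated start base was present in 45 of the 67 (67.2%), against 9.80% of 27305 promoters of all genes. The start base was C in 47 of 67, against 14.99% of all promoters. Below are the 30 bases before and the 20 from the start, on the gene's strand, with the run that includes the start base in capitals. The first 8 genes fell in the fit by replicate number described below, and RPL3, RPL4 and RPL22L1 did not.
RPS29: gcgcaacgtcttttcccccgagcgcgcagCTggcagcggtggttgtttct
RPS27: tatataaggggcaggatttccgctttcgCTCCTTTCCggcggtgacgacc
RPS21: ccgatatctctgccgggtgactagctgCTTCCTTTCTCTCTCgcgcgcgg
RPL34: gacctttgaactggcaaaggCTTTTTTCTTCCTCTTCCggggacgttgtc
RPS9: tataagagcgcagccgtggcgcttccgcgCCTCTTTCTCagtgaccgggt
RPL41: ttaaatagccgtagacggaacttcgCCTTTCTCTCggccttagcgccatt
RPL39: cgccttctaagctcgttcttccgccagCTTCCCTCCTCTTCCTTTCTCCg
RPLP2: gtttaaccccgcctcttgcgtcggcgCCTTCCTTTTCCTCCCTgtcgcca
RPL3: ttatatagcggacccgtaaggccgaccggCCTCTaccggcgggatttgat
RPL4: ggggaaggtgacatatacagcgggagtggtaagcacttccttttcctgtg
RPL22L1: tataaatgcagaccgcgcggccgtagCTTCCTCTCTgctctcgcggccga
These windows lie at chr14:49598691-49598740 (RPS29, minus strand), chr1:153990732-153990781 (RPS27, plus), chr20:62387073-62387122 (RPS21, plus), chr4:108620546-108620595 (RPL34, plus), chr19:54200828-54200877 (RPS9, plus) and chr12:56116603-56116652 (RPL41, plus). The others lie at chrX:119791611-119791660 (RPL39, minus), chr11:809937-809986 (RPLP2, plus), chr22:39319604-39319653 (RPL3, minus), chr15:66504836-66504885 (RPL4, minus) and chr3:170870176-170870225 (RPL22L1, minus). The letters CTTTCC stood in the window of 17 of 67 members, against 2.52% of all promoters, and on the opposite strand in 0 of 67, against 2.07%. RPS29 and RPS27L were the 2 of the 11 genes that fell without a run of 5 at the annotated start. The fitted log2 change had a median of -0.36 in the 45 members with such a run and -0.29 in the 21 tested members without one. These classes depend on the annotated start. A run that lies near the start base without including it, as in the RPL4 window, was not counted.

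Total counts per library ran from 21437267 to 27183692, and nothing in the labels gives a batch. Urothelial keratins were abundant (KRT19 at 793 to 979 CPM in treated and 1300 to 1767 CPM in control cultures). UPK3A, a uroplakin of terminal differentiation, was at 0 CPM in all treated and 3 control cultures and at 0.111 CPM in control 3. TP63, a factor of basal cells, was at 0.578 to 1.47 CPM in treated and 0.0481 to 1.101 CPM in control cultures. Of 11 tested urothelial markers 1 rose and 4 fell, and their summed level was 3918 to 4417 CPM in treated and 5298 to 7318 CPM in control cultures. The summed level of 6 fibroblast markers was 15.8 to 27.01 CPM in treated and 17.0 to 26.8 CPM in control cultures. That of 4 endothelial markers was 2.49 to 5.88 CPM in treated and 3.24 to 4.98 CPM in control cultures. That of 5 leukocyte markers was 2.46 to 3.82 CPM in treated and 3.804 to 5.70 CPM in control cultures. No tested marker of these other cells passed the test (2 fibroblast, 2 endothelial and 1 leukocyte marker tested). The part of the changes in urothelial markers in the results below was not tested.

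Ribosomal protein genes together took 6.61 ± 1.49% of all counts in treated and 7.70 ± 1.58% in control cultures (SD, n = 4 each). The share was 6.67, 4.53, 7.25 and 7.99% in treated cultures 1 to 4 and 7.41, 5.80, 9.62 and 7.99% in control cultures 1 to 4. The groups overlapped widely, and the share was lower in the treated culture of pairs 1, 2 and 3 and almost equal in pair 4. The differences, treated minus control, were -0.738, -1.27, -2.36 and 0.00749 percentage points. In bulk RNA, fewer cells of a kind and less RNA per cell cannot be told apart. Mitochondrially encoded genes took 2.25 to 3.28% of counts in treated and 1.23 to 2.97% in control cultures, With these genes left out of the totals, the ribosomal protein share was 6.81 ± 1.53% in treated and 7.89 ± 1.65% in control cultures, a difference of -1.08 points, against -1.09 with them.

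**Figure D1:**
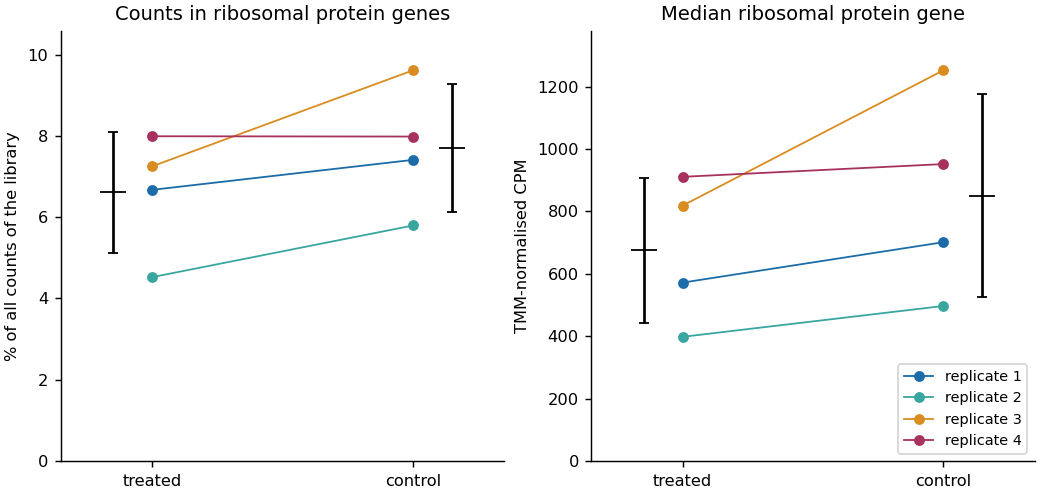
Left, share of each library's counts in the 84 ribosomal protein genes (%). Right, TMM-normalised CPM of the median of the 82 tested genes. Lines join treated and control cultures of the same number, and the black bars are mean ± SD of 4. Pairs 1, 2 and 3 slope upward to the control culture, and in pair 4 the shares are 7.99% in both.

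The median tested gene was at 572, 398, 819 and 911 CPM (counts scaled to library size with edgeR's TMM factors) in treated cultures 1 to 4, against 701, 497, 1253 and 952 CPM in controls 1 to 4. Cultures of 1 group thus differed more than the groups did. Treated 4 held the highest treated value of 68 of the 82 genes and treated 2 the lowest of 75. Among controls, control 3 was highest for 73 genes and control 2 lowest for 71. The highest control value was a median of 2.44 times the lowest, and in treated cultures this ratio was 2.21.

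Levels between genes can be compared only per length. By the deposited FPKM (the authors' counts scaled to gene length and library size), RPL35, RPS12, RPL13A, RPS2 and RPS3A were the 5 highest on average over 8 libraries, at 1534, 1522, 1080, 1052 and 985 FPKM. The median over 84 genes was 231 FPKM. The deposited length counts every annotated exon of a gene, and for RPS29 it is 9845 bases against a coding length of 171, which puts RPS29 at 14.9 FPKM. Per kilobase of coding length, RPL41, whose protein of 25 residues is the shortest of the set, ranked first of 84, while it ranked 7th by FPKM.

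The comparison of treated with control cultures by replicate number asks which ribosomal protein mRNAs change under glucose oxidase. In this fit (edgeR's quasi-likelihood test with the replicate number as a block, Benjamini-Hochberg adjusted p below 0.05 over 17413 genes) 11 of 82 members fell, 0 rose and 71 did not pass. These 11 are 13.4% of the tested members, and 6.97% of all genes tested were called lower and 7.51% higher. The median log2 change of members was -0.35, that of all genes -0.01, and 77 of 82 members had a negative value. An unadjusted p below 0.05 with a lower value was found for 39 members, against 14.5% of all genes. With total counts in place of TMM, edgeR called 1 member lower, RPS29, with 535 genes lower and 1675 higher in all. Without replicate 1, 2 or 3 in both groups the count of lower members was 1, 2 and 1, and without replicate 4 it was 9. With total counts the median of all genes moved to 0.10 and that of members to -0.24. "Rose" and "fell" are said below of genes past this test.

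Without the block edgeR called 0 genes of any kind. The smallest adjusted p of a member was then 0.677, and 0 of 82 members had an unadjusted p below 0.05 (1284 of 17413 genes did). DESeq2 without a block also called 0 members, while 35 genes were higher and 39 lower of 20492 given an adjusted p. An unadjusted p below 0.05 was found there for 2 members and 1865 genes. The median of members was -0.36 in the edgeR fit without the block, so the change was of like size and did not exceed the spread between cultures of a group. In DESeq2 with the block 33 of the 82 members given an adjusted p were lower and 0 higher, against 8.6% of genes lower and 7.99% higher by that test. Cultures 1 and 2 of both groups also resemble each other, as do cultures 3 and 4, a division known from earlier results and not from the labels. When these 2 sets replaced the block, edgeR called 0 members, against 3.07% of all genes lower and 3.72% higher. An unadjusted p below 0.05 was then found for 21 of 82 members and for 4376 of 17413 genes.

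**Figure D2:**
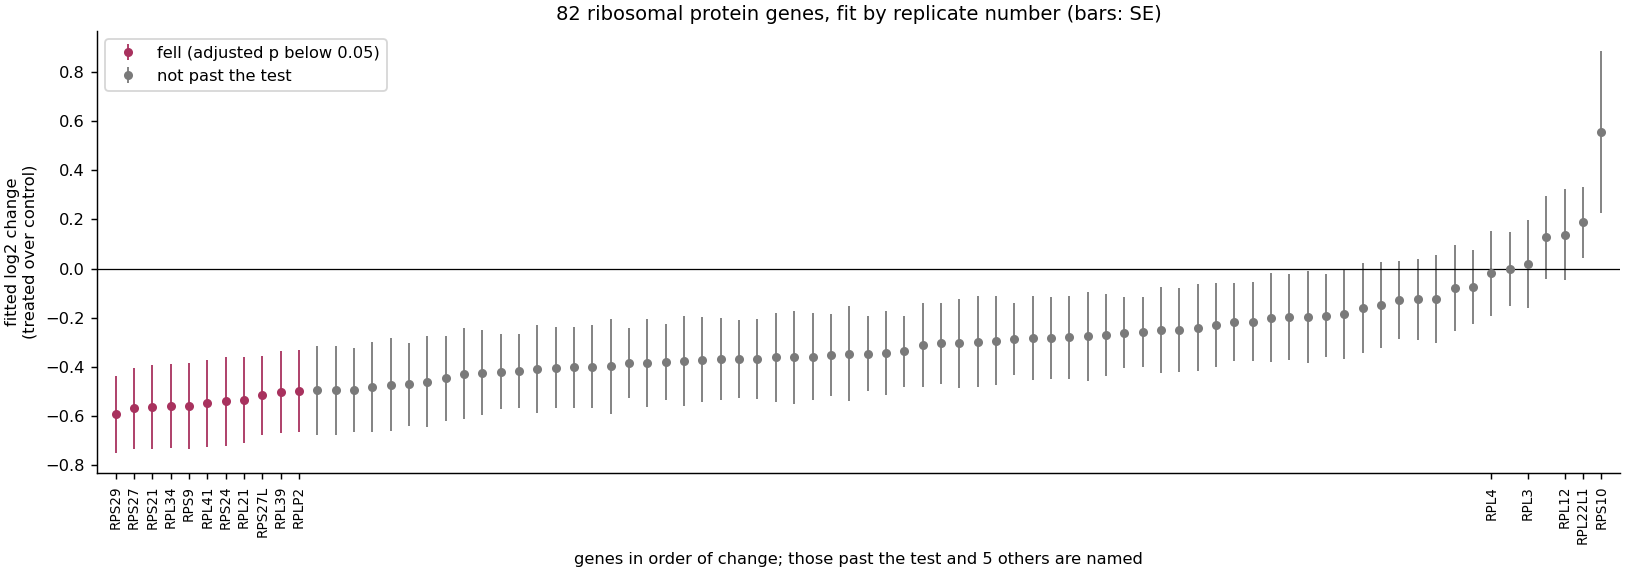
Fitted log2 change, treated over control, of the 82 tested ribosomal protein genes in the edgeR fit by replicate number, in order of size, with bars of 1 SE. The 11 genes past the test lie between -0.59 and -0.50, next to genes of nearly the same change that did not pass.

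The change was uneven over the pairs. The median log2 ratio of the 82 members (CPM plus 0.5, treated over control) was -0.20, -0.35, -0.68 and -0.10 over pairs 1 to 4. Fewer CPM in the treated culture were found for 58, 69, 80 and 64 members in pairs 1 to 4, against 49.97, 50.8, 50.8 and 51.2% of all genes. In all 4 pairs 40 of 82 members were lower, against 17.1% of all genes tested, and 1, RPS10, was higher, against 16.9%. None of the 82 tested members had all treated cultures below all controls, which 2.6% of all genes tested did. The median fitted change was -0.26 within replicates 1 and 2 and -0.41 within replicates 3 and 4. The difference between these sets passed the edgeR test for 0 of 82 members and for 0.23% of all genes. It had an unadjusted p below 0.05 for 1 member, RPL7L1, and for 1462 of 17413 genes.

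**Figure D3:**
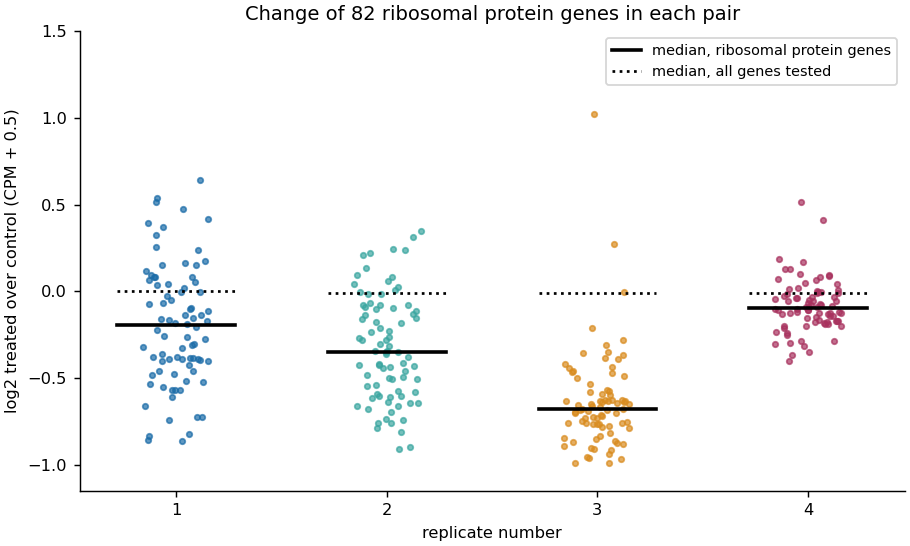
Log2 ratio of treated to control CPM (plus 0.5) for each of 82 ribosomal protein genes in each of the 4 pairs, with the median of these genes as a solid and of all genes tested as a dotted line. The median lies at -0.68 in pair 3 and at -0.10 in pair 4, while that of all genes stays between -0.01 and 0.00.

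In the small subunit 6 of 32 genes fell and 26 did not pass, with a median log2 change of -0.36, while 6.97% of all genes tested fell. RPS29, a small zinc-binding protein of the subunit's head, had 124, 58.8, 146 and 144 CPM in treated cultures 1 to 4, against 225, 98.1, 248 and 145 CPM in controls. It fell by 0.59 on the log2 scale (SE 0.157, edgeR adjusted p = 0.0118), with the treated value clearly lower in pairs 1 to 3 and level with the control in pair 4. RPS27, another zinc-binding protein, had 292, 135, 327 and 359.7 CPM in treated cultures, against 403, 252, 583 and 379 CPM in controls. It fell by 0.57 (SE 0.165, edgeR adjusted p = 0.0205). Of its 100-base stretches 60.0% also occur in transcripts of other genes, so its counts are uncertain.

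RPS21 had 437, 194, 513 and 590.2 CPM in treated cultures, against 723, 304, 952 and 583 CPM in controls, and fell by 0.56 (edgeR adjusted p = 0.0270). Here pair 4 went the other way. RPS9, one of the proteins that bind early to 18S ribosomal RNA, had 849, 519.8, 824 and 888 CPM in treated cultures, against 1515, 832, 1300.3 and 923 CPM in controls. It fell by 0.56 (edgeR adjusted p = 0.0318). RPS24, mutated in some families with Diamond-Blackfan anaemia, a failure of red cell production, had 1315, 686, 1831 and 1895 CPM in treated cultures, against 1949, 1206, 2941 and 2016 CPM in controls (log2 change -0.54, edgeR adjusted p = 0.0442), and was named after its call was seen. In both genes the treated value was lower in all 4 pairs, least in pair 4.

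RPS27L, a paralog of RPS27 that is known as a p53 target, fell by 0.52 (edgeR adjusted p = 0.0293). It had 66.1, 34.8, 75.0 and 79.2 CPM in treated cultures, against 62.5, 65.8, 140.9 and 98.6 CPM in controls, and was lower in 3 of 4 pairs. Several small subunit genes studied for other roles did not pass. RPS6, the substrate of S6 kinases downstream of mTOR, averaged 1029 ± 274 CPM in treated and 1284 ± 545 CPM in control cultures (SD, n = 4; log2 change -0.25, edgeR adjusted p = 0.373). RPS3, at the entry of the mRNA channel, had a log2 change of -0.30 (edgeR adjusted p = 0.275). RPS19, the gene most often mutated in Diamond-Blackfan anaemia, had one of -0.46 (edgeR adjusted p = 0.0915), and RPS27A, made as a fusion with ubiquitin, one of -0.50 (edgeR adjusted p = 0.0639). RPSA, which is also known as a laminin receptor, was among the genes of most counts, with 2619, 1514, 3553 and 3785 CPM in treated cultures, against 2948, 2214, 6523 and 4644 CPM in controls. It was lower in all 4 pairs and did not pass (log2 change -0.47, edgeR adjusted p = 0.0945). RPS3A (log2 change -0.50, edgeR adjusted p = 0.0644) lay just outside the threshold. RPS2 (-0.30, edgeR adjusted p = 0.304) and RPS12 (-0.42, edgeR adjusted p = 0.103) did not pass either.

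**Figure D4:**
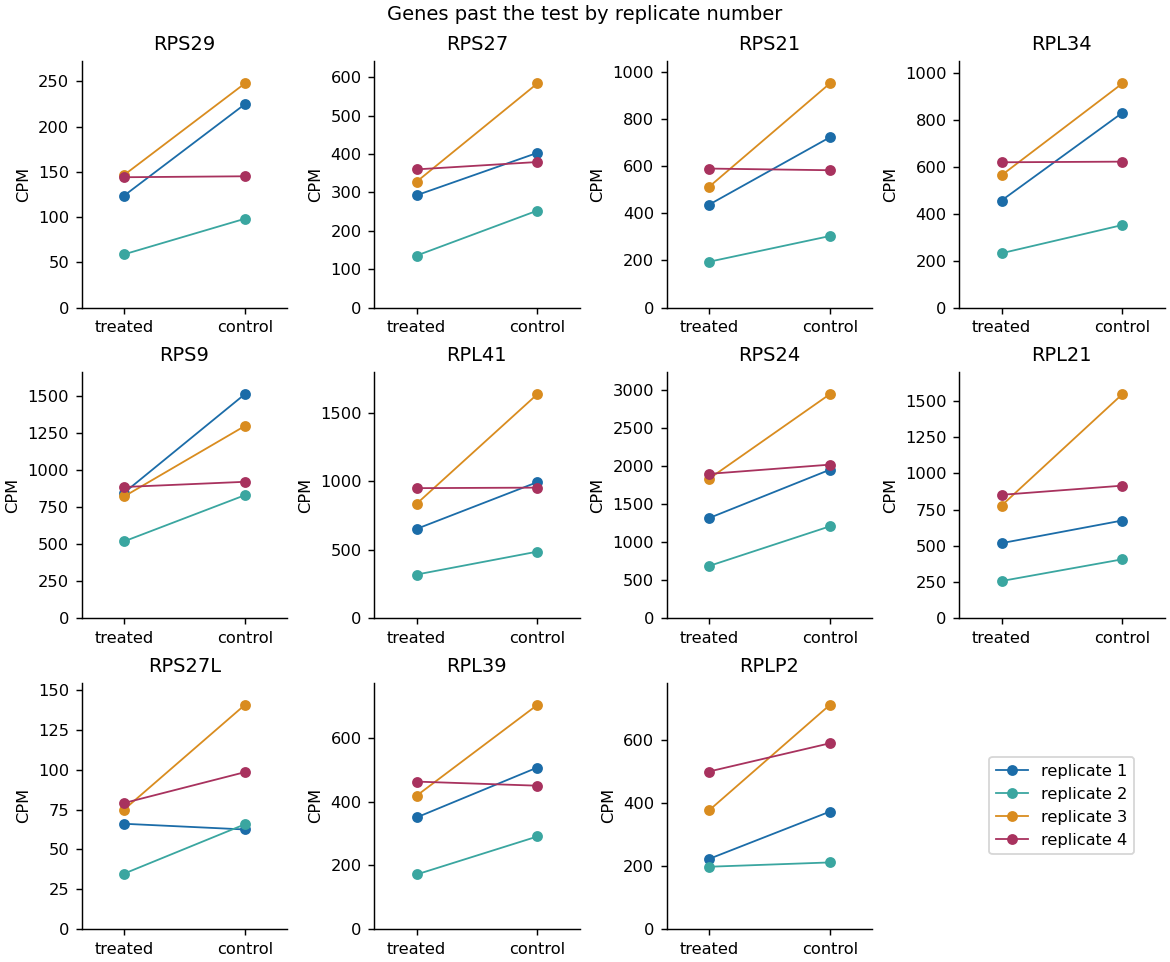
TMM-normalised CPM of the 11 ribosomal protein genes past the edgeR test by replicate number, with lines joining treated and control cultures of the same number. Within each gene the cultures of a group differ widely, and the line of pair 4 is nearly level for RPS29, RPL34 and RPL41.

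In the large subunit 5 of 50 genes fell and 45 did not pass, with a median log2 change of -0.29, again beside 6.97% of all genes. The difference between the subunits was not tested. RPL34 had 457, 232, 565 and 620.4 CPM in treated cultures, against 832, 352, 957 and 623 CPM in controls, and fell by 0.56 (SE 0.171, edgeR adjusted p = 0.0275). RPL41, a short basic peptide that bridges the subunits, had 651, 319, 834 and 949 CPM in treated cultures, against 993, 486, 1634 and 953 CPM in controls, and fell by 0.55 (edgeR adjusted p = 0.0368). Both were near their control in pair 4. RPL39, which lines the exit tunnel for the growing protein, had 350.1, 171, 418 and 463 CPM in treated cultures, against 507, 290.4, 704 and 449.9 CPM in controls, and fell by 0.50 (edgeR adjusted p = 0.0417). In pair 4 its treated value was the higher one. RPL21 had 518, 257, 778 and 852 CPM in treated cultures, against 675, 407, 1547 and 915 CPM in controls (log2 change -0.53, edgeR adjusted p = 0.0384). It was named after its call was seen, and 54.5% of its 100-base stretches occur in transcripts of other genes.

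The acidic stalk, to which translation factors bind, is built from RPLP0, RPLP1 and RPLP2. RPLP2 had 222, 197, 376 and 499 CPM in treated cultures, against 372, 211, 710.1 and 588 CPM in controls. It was lower in all 4 pairs, fell by 0.50 (SE 0.167) and passed narrowly (edgeR adjusted p = 0.0438). Without the filter on low counts it did not pass (edgeR adjusted p = 0.0521). RPLP1 (log2 change -0.37, edgeR adjusted p = 0.143) and RPLP0 (-0.18, edgeR adjusted p = 0.547) did not pass. RPL5 and RPL11, the partners of 5S ribosomal RNA, had log2 changes of -0.36 (edgeR adjusted p = 0.177) and -0.47 (edgeR adjusted p = 0.0591). RPL11 averaged 803 ± 369 CPM in treated and 1150.2 ± 622 CPM in control cultures (SD, n = 4). RPL13A, known from a complex that restrains translation of inflammatory mRNAs, averaged 2165 ± 612 CPM in treated and 2997 ± 1201 CPM in control cultures (log2 change -0.43, edgeR adjusted p = 0.123). RPL35, highest by FPKM, had one of -0.40 (edgeR adjusted p = 0.172).

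At the other end of the range most values were small. RPL4 and RPL3, which have the longest coding sequences of the tested members, averaged 1363 ± 151 and 1199 ± 130 CPM in treated and 1399 ± 291 and 1223 ± 382 CPM in control cultures (SD, n = 4). Their log2 changes were -0.02 (edgeR adjusted p = 0.956) and 0.02 (edgeR adjusted p = 0.959). RPL12 had 1333, 1029, 1185 and 1300.4 CPM in treated cultures, against 853, 868, 1639 and 1190.1 CPM in controls (log2 change 0.14, edgeR adjusted p = 0.679). It was higher in the treated culture of 3 pairs and lower in pair 3. The most positive log2 changes were 0.19 for RPL22L1 and, at under 2 CPM, 0.55 for RPS10, and neither passed.

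Annotation limits a few genes. RPS10 was at 1.65, 1.81, 1.64 and 1.58 CPM in treated cultures, against 1.17, 1.45, 0.553 and 1.49 CPM in controls. All its treated values lay above all controls, which 2.42% of all genes showed, and it did not pass (log2 change 0.55, SE 0.33, edgeR adjusted p = 0.278). Its exons overlap those of RPS10-NUDT3 on the same strand over 88.0% of the principal transcript. RPL17 and RPL36A are overlapped over 76.3 and 77.6%, so reads of these genes could be split or left out, and their levels are uncertain. In 11 of 84 members more than 50% of 100-base stretches occur in other genes' transcripts. Adding the counts of 1144 named pseudogenes to their parent genes left 12 members lower and 0 higher, against 1218 of 17327 genes lower and 1300 higher.

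Paralogs that stand in for a standard ribosomal protein were set beside their partners. RPL22L1 had 137, 76.8, 87.3 and 80.9 CPM in treated cultures, against 128, 84.3, 72.1 and 56.4 CPM in controls (log2 change 0.19, edgeR adjusted p = 0.421). Its partner RPL22, which in mouse cells is known to repress RPL22L1, had 123, 109.9, 216 and 214 CPM in treated cultures, against 163, 116, 373 and 283 CPM in controls (log2 change -0.42, edgeR adjusted p = 0.0629). RPL22L1 was higher in 3 treated cultures of the 4 pairs, RPL22 lower in all 4, and neither passed. RPL39L, a paralog of RPL39 best known from male germ cells, had a log2 change of -0.26 (edgeR adjusted p = 0.236). RPL26L1 had one of -0.38 (edgeR adjusted p = 0.0969) and RPL26 also one of -0.38 (edgeR adjusted p = 0.0650). RPL7L1 was at 77.1 ± 5.95 CPM in treated and 84.2 ± 26.5 CPM in control cultures (log2 change -0.08, edgeR adjusted p = 0.793), and RPL7 had a log2 change of -0.48 (edgeR adjusted p = 0.0738). RPL10 had one of -0.28 (edgeR adjusted p = 0.283).

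RPL3L and RPL10L did not pass the filter on low counts. RPL3L, the paralog of RPL3 in striated muscle, had 5, 5, 1 and 5 counts in treated and 19, 18, 6 and 16 counts in control cultures. Its treated values were all lower than its controls. In the authors' deposited table RPL3L has a log2 fold change of -2.12 at an adjusted p of 0.119, the smallest of any member there, and 0 of 83 listed members are below 0.05. In edgeR with the replicate block and no filter on low counts the log2 change of RPL3L was -2.09 (adjusted p = 0.0146), and without the block -2.05 (adjusted p = 0.446). RPL10L, a testis paralog of RPL10, had 0 counts in all 8 libraries, which allows up to 3 counts per library, or 0.110 to 0.140 CPM.

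Gene length went along with the change. Over 13815 tested genes with a coding sequence the fitted change had a Spearman correlation of 0.351 with coding length. Within the 82 members it was 0.337. These genes share libraries and are no replicates. Of 11 members with a coding length under 300 bases 6 fell (median log2 change -0.50), of 48 with 318 to 591 bases 5 fell (median -0.36), and of 23 with 612 to 1284 bases 0 fell (median -0.28). The correlation within members was 0.338, 0.256, 0.220 and -0.180 in pairs 1 to 4, so pair 4 went the other way.

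Most ribosomal protein genes are short, with a median coding length of 457.5 bases. Tested genes with a coding sequence were put in order of coding length and cut into 10 classes of equal size. In the shortest class, 78 to 537 bases, 10 of 53 members fell (18.9%), while 22.9% of all 1382 genes in that class fell. The median log2 change there was -0.37 for members and -0.26 for all genes, and 40 of 53 members lay below the median of all genes there. In the next class, 537 to 759 bases, 1 of 17 members fell, against 13.8% of all genes, with medians of -0.30 for members and -0.14 for all genes. In both classes members thus had a lower median than all genes, and a smaller share of them passed.

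With an offset that removes each library's trend on coding length, 0 members were lower and 1, RPL22L1, was higher (log2 change 0.43, edgeR adjusted p = 0.0413), against 5.54% of all genes lower and 5.12% higher. The trend was removed only in genes with a coding sequence, which were 13815 of the 17413 tested and all 82 members. The shares of all genes thus include uncorrected ones. With this offset the median of members was -0.14. RPL41 had a log2 change of 0.01 and RPS29 one of -0.19 in that fit. With an offset for the deposited gene length 6 members were lower and 0 higher, against 6.7% of genes lower and 5.81% higher. With one for principal transcript length 3 were lower and 0 higher, against 6.03% lower and 5.14% higher. Within members the change had a correlation of 0.0259 with deposited gene length and 0.0640 with transcript length.

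**Figure D5:**
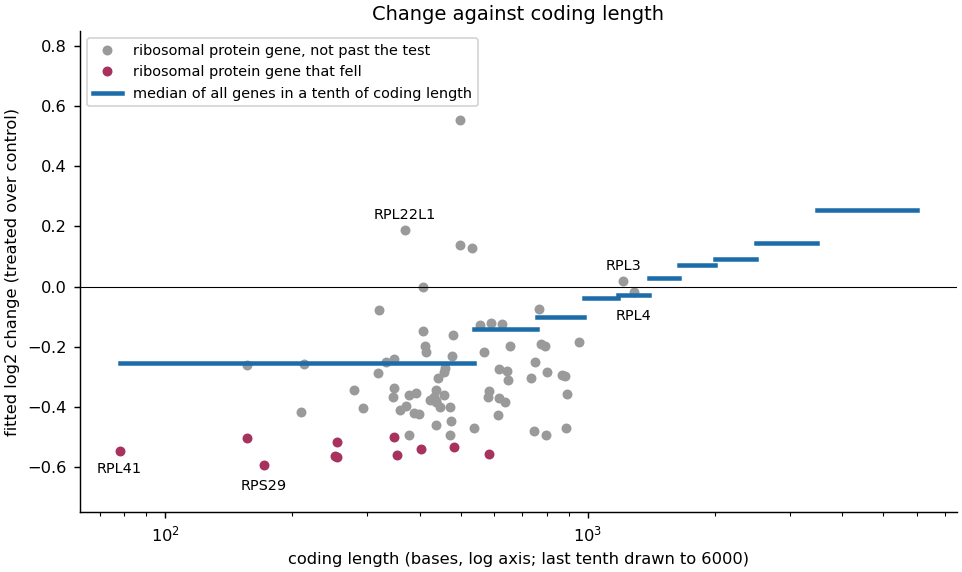
Fitted log2 change, treated over control, against coding length (log axis) for 82 ribosomal protein genes. Blue lines give the median of all tested genes in each of 10 classes of coding length, which runs from -0.26 in the shortest to 0.25 in the longest. Most members lie below the line of their class, while RPL3 and RPL4 lie near 0.

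Other parts of the translation machinery were described by lists. Among ribosomal proteins whose names fall outside the rule, FAU, the ubiquitin-like fusion of RPS30, fell by 0.53 (edgeR adjusted p = 0.0326) and RPL36AL by 0.52 (edgeR adjusted p = 0.0262). FAU had 379, 236, 446 and 512 CPM in treated cultures, against 539, 299.4, 935 and 595 CPM in controls, lower in all 4 pairs. Of 5 proteins that bind ribosomes (RACK1, NACA, BTF3, TPT1 and SERBP1) 0 passed, and RACK1 had a log2 change of -0.03. Of 4 tested elongation factors 1, EEF1D, an exchange factor for the tRNA carrier EEF1A, fell (log2 change -0.46, edgeR adjusted p = 0.0327). EEF1G was listed at 0 counts in all libraries. Why it had none was not tested, so its level is uncertain.

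Lists of genes for the building or control of ribosomes were read against the 7.51% of all genes called higher and 6.97% called lower. Of 38 ribosome biogenesis genes 0 fell and 2 rose, NOLC1 (log2 change 0.60, edgeR adjusted p = 0.00839) and UTP20 (0.49, edgeR adjusted p = 0.0259), with a list median of -0.00. Of 32 initiation factors 0 fell and 2 rose, EIF4EBP1, the mTOR substrate that restrains cap-dependent translation (0.53, edgeR adjusted p = 0.0181), and EIF3C, whose near-identical copy makes its counts uncertain (0.79, edgeR adjusted p = 0.0190). Of 14 RNA polymerase I genes POLR1A (0.59, edgeR adjusted p = 0.0124) and POLR1B (0.48, edgeR adjusted p = 0.0262) rose and 0 fell. Of 17 genes listed under control of ribosomal protein synthesis 5 rose and 0 fell. That each of them, TBL1X included, has a direct part in this control was not tested. MYC, a transcription factor that drives ribosome production, had 149, 166, 119 and 97.3 CPM in treated cultures, against 72.6, 134, 36.9 and 40.3 CPM in controls. It was higher in all 4 pairs and rose by 1.07 on the log2 scale (SE 0.172, edgeR adjusted p = 0.000194). TBL1X (0.85, edgeR adjusted p = 0.00296) and RPTOR, the scaffold of mTOR complex 1 (0.58, edgeR adjusted p = 0.00832), also rose. LARP1 (0.61, edgeR adjusted p = 0.0111) and MTOR (0.53, edgeR adjusted p = 0.0138) were the others that rose, and were named after their values were seen. The 17 genes have a median coding length of 1581 bases. With the coding length offset 3 of them were higher, as were 2 initiation factors and 1 biogenesis gene, while 0 RNA polymerase I genes were higher and 1 was lower. In that fit 5.12% of all genes were higher and 5.54% lower. With the 2 sets of cultures in place of the block the counts of higher genes were 2, 1, 1 and 0, against 3.72% of all genes.

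The genes most like the members in size are other nuclear genes for small proteins of large complexes. Of 78 mitochondrial ribosomal protein genes 21 fell and 1, MRPL10, rose, with a median log2 change of -0.25. Of all genes tested 6.97% fell and 7.51% rose. The smallest adjusted p among those that fell were those of MRPL23 (-0.75, edgeR adjusted p = 0.000967), MRPL48 (-0.71, edgeR adjusted p = 0.00186) and MRPL54 (-0.58, edgeR adjusted p = 0.00615). Of 36 tested complex I subunits 16 fell and 0 rose, with a median of -0.42, led by NDUFA2 (-0.84), NDUFB3 (-0.85) and NDUFB1 (-0.82). With the coding length offset 2 mitochondrial ribosomal protein genes and 10 complex I subunits were lower, against 0 cytosolic ribosomal protein genes, with medians of -0.12, -0.20 and -0.14. When the 2 sets of cultures replaced the block, the counts of lower genes were 2, 9 and 0, against 3.07% of all genes. The differences between these lists were not tested.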

How the data were processed

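Tools named in the submitters' processing notes are DESeq2 1.20.0, HISAT2 2.0.5 and featureCounts 1.5.0-p3, with the build GRCh38.p13. The strand setting and the treatment of reads with several matches are not given in the sources used here. Raw read counts for each gene were deposited as whole numbers without scaling. The deposited FPKM values are per kilobase of summed exons, on libraries scaled by the authors. The authors' deposited table also holds a normalised signal, a log2 fold change, a p-value and an adjusted p-value per gene, of which the last 3 were read for members. Genes carry the coordinates of GENCODE release 29 in 58735 of 58735 cases, from which principal transcripts (the longest tagged as such), coding lengths and overlaps were taken.

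The tests ran in edgeR 4.0.16 on R 4.3.3 with these counts (filterByExpr, TMM, quasi-likelihood, Benjamini-Hochberg over all genes tested). DESeq2 1.42.0 was an alternative. The fit without a block and the fit by replicate number stand side by side. Standard errors are the log2 change over the root of F. Length offsets are loess trends (span 0.5) of each library's deviation in log2 CPM (prior count 2) on log2 length. The one on coding length was chosen after seeing the data. The labels do not say that numbers pair cultures, but deviations of same-numbered cultures from their group means correlated at 0.532, 0.678, 0.590 and 0.503 over all genes, above the minimum of 0.1. Differently numbered cultures inside the sets 1 and 2 or 3 and 4 correlated about as highly (0.443, 0.468, 0.453 and, for treated 4 with control 3, 0.652), so the check does not tell pairing by number from these sets. Replicates of a group differed by more than sampling noise (9.98 to 227 in chi-square over its degrees of freedom). The labels call them biological replicates. Without a block, p-values measure the spread between replicates of a group. By replicate number, they measure how far the difference of treated from control varies over the numbers. On simulated counts for 17413 genes with 100 changed 2-fold and 100 changed 4-fold, the comparison without a block recovered 8 and 68% and that by replicate number 76 and 93%, with 0 and 6 false calls. Pairing was built into that simulation.

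Members and lists were chosen with earlier results of these data known. Members named are the 6 lowest and 6 highest changes at a mean of at least 5 CPM, the 5 highest by FPKM, paralogs with partners and a set chosen by role, with up to 3 called genes per direction for other lists. RPS24, RPL21, RPS10, RPL17, RPL36A, LARP1, MTOR and RACK1 were added after their values were seen. A few genes under this rule are not reported here.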

Additional observations from a re-analysis of the deposited data

Results flagged for a closer look

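RPS3A stood apart in 1 treated culture. It was at 1097 CPM in treated 2, against 2166 to 2286 CPM in the other treated cultures, a gap of 0.899 of the group's range, above Dixon's critical value for 4 samples. Treated 2 also held the lowest treated value of 75 of the 82 tested members. Chance gives about 1 such gap in 20 groups, and 1 was found in 76 groups of named members and shares. Without replicate 2 in both groups the log2 change of RPS3A was -0.43 (edgeR adjusted p = 0.239), against -0.50 (edgeR adjusted p = 0.0644) with all cultures, so it did not pass in either fit. Over all alternatives run by edgeR or DESeq2 its adjusted p was 0.00359 to 0.714.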

How the results depend on the processing

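The direction of the members' median held in every alternative run, while the count of members past the test did not. From 11 lower by replicate number, edgeR gave 1 with total counts (RPS29), 0 with no replicate block, 0 with the sets 1 and 2 against 3 and 4 as a term, 6 with the gene length offset, 3 with the transcript length offset and 0 with the coding length offset, which also gave 1 higher. DESeq2 with the replicate block gave 33. Leaving out 1 replicate number gave 1 to 9: 1 without replicate 1 (RPS27L), 2 without replicate 2 (RPLP2 and RPS28), 1 without replicate 3 (RPL3L) and 9 without replicate 4, with medians of -0.43 to -0.23. In these fits 1.22, 2.44, 1.205 and 10.98% of members were lower, against 4.17, 3.71, 2.85 and 5.12% of all genes, the members' share being the smaller one without replicates 1, 2 and 3, a difference not tested. RPL41 turned to a log2 change of 0.013 with the coding length offset. Without the block the count of lower members was 0, in each fit that left out 1 library too, with medians of -0.54 to -0.12, and with the replicate block it was 11. Adding pseudogenes gave 12, the 11 and RPL22, and dropping the filter gave 11, of which 10 were the same, with RPL3L in place of RPLP2. Of all genes, 7.03% were lower with pseudogenes added and 2.45% without the filter. Low counts were no limit for most members, but they were for RPS10, RPL3L and RPL10L. The exons of RPS10 overlap those of RPS10-NUDT3 over 88.0% of its principal transcript, so its level is uncertain at any depth. The causes of these changes were not tested.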

Other observations

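Within the 82 tested members, the deviations of same-numbered treated and control cultures from their group means correlated at 0.571, 0.716, 0.799 and 0.649 for numbers 1 to 4, as a description over genes that share libraries. The deviations of control 3 correlated at 0.838 with those of treated 4, a different number. Counts assigned to the 1144 named pseudogenes of members made up 0.380, 0.247, 0.337 and 0.361% of treated libraries 1 to 4 and 0.425, 0.325, 0.451 and 0.357% of control libraries 1 to 4, again lower in the treated culture of pairs 1 to 3.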
